A study of Mus musculus with 2 samples.

Results

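Gpr132, Gpr65 and Gpr4, 3 of the 32285 genes in the deposited matrices, were followed across marker-gated immune cells of mouse liver tumours. They were chosen by name, as members of the proton-sensing family of G-protein-coupled receptors, and all 3 had UMIs (unique molecular identifiers, each standing for 1 captured RNA molecule) in both libraries. The tumours were hepatocellular carcinomas of MYC-ON mice, a genotype that both groups share, and live CD45+ cells were sorted from dissociated tumours and profiled by 10x Genomics 5′ single-cell RNA-seq. The STK group is 1 library from tumours of mice given STK by gavage, and the DMSO group is 1 library from tumours of mice given DMSO. The labels do not say what STK is or at what dose it was given, what drives MYC, or how many mice of which age and sex each library holds. The series title names a pathway of the oxysterol 20(S)-hydroxycholesterol and GPR132, and regulatory T cells as the cells of interest, so the level of Gpr132 in Foxp3+ T cells and in every other leukocyte, with and without STK, is the question taken up.

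Proton-sensing receptors carry histidines on their extracellular face, and a fall in extracellular pH, as in poorly perfused tumours, favours their active form. GPR65 (TDAG8) and GPR4 couple mainly to Gs and raise cAMP, whereas GPR132 senses protons weakly, couples to other G proteins as well, and is better known as a leukocyte receptor for oxidised fatty acids, lysophospholipid-related signals and lactate. GPR65 is a receptor of lymphoid and myeloid leukocytes, and GPR4 is best known from endothelium.

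Gpr132 and Gpr65 lie on chromosome 12 and Gpr4 on chromosome 7 (GRCm38, GENCODE vM21). Gpr132 (ENSMUSG00000021298) spans chr12:112850873-112868228 on the minus strand and overlaps no annotated gene. Gpr65 (ENSMUSG00000021886) spans chr12:98268635-98276644 on the plus strand and is overlapped by the antisense model Gm47566, to which 12 STK and 8 DMSO UMIs were assigned. Gpr4 (ENSMUSG00000044317) spans chr7:19212538-19224174 on the plus strand. The 250 bases before each RefSeq start (GRCm38.p6) are shown because the receptors differed in how they stood between the libraries. The Gpr132 window is chr12:112860917-112861166 on the minus strand, and this RefSeq start lies inside the longer GENCODE span. The Gpr65 window is chr12:98268385-98268634 and the Gpr4 window is chr7:19212288-19212537, both on the plus strand. All are written 5′ to 3′ along the gene, and capitals mark matches on either strand to TGACG, the half-site of the cAMP response element, and to GGAAG, a core that ETS-family factors bind. No matches overlap.
Gpr132: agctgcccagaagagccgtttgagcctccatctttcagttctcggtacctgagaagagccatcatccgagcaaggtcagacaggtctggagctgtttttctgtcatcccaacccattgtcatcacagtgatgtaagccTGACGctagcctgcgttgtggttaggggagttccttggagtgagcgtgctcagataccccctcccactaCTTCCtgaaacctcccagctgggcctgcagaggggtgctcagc
Gpr65: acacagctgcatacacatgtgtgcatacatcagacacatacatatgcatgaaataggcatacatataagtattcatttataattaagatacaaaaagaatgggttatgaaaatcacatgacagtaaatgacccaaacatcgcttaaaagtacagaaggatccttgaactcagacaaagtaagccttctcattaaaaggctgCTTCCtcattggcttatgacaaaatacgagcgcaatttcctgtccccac
Gpr4: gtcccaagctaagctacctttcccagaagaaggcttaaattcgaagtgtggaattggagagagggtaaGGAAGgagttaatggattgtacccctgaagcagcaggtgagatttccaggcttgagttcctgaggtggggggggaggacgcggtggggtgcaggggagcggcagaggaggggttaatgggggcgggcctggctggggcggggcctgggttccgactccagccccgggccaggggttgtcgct
The Gpr132 window held 1 TGACG, a motif found in 17.8% of 32851 mouse promoter windows of the same length, and the other windows held none. GGAAG occurred once in each, as it did somewhere in 64.1% of all windows. The full palindrome TGACGTCA, in 1.55% of windows, was found in none of them. The E-box CANNTG, present in 66.2% of windows, occurred 1 time before Gpr132, 5 times before Gpr65 and 1 time before Gpr4. Base composition differed as well, with 55.6% G and C before Gpr132, 36.8% before Gpr65 and 61.2% before Gpr4. A match describes the letters only.

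A barcode counted as a cell from 500 UMIs and 250 genes upward and up to a mitochondrial share of 10%, which left 10846 of 11672 STK barcodes and 11152 of 11784 DMSO barcodes, with medians of 4930.5 UMIs per STK cell and 4471.5 UMIs per DMSO cell. A cell was assigned to a cell type only if it passed the marker gate of that type and of no other, and 13 gates held at least 50 cells in each library (6740 STK and 6576 DMSO cells). In all of these gates at least 4 of 6 or 7 marker genes not used for gating were at least 2 times higher than in the rest of the cells in each library. Among the markers that missed this in both libraries were Cd7 in CD8 T cells and Ccr2 in cDC2. The libraries differed in sex: by Xist and Y-linked transcripts, 74.0% of STK cells that could be sexed were female, against 18.8% of DMSO cells, so each comparison was also made within female and within male cells. The libraries shared 203 barcodes. Levels are CPM, the UMIs of a gene per 1000000 UMIs of all cells of the gate. With 1 library per group there is no test. All 95% intervals (exact Poisson for CPM, exact conditional binomial for ratios, Clopper-Pearson for shares) cover counting error only, not the spread between mice. In summed counts, fewer expressing cells and less RNA per cell cannot be told apart.

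Gpr132 was present in all 13 gates, highest in migratory dendritic cells and lowest in B cells. In STK tumours it reached 417.5 CPM (377.4 to 460.8) in migratory dendritic cells, which carry antigen to lymph nodes, and 320.1 CPM (289.7 to 352.8) in type 2 conventional dendritic cells (cDC2). Foxp3-negative Cd4 T cells followed with 271.7 CPM (246.8 to 298.4), an interval that overlapped that of cDC2. Below them the order ran through classical monocytes, Foxp3+ T cells, NK cells, CD8 T cells, type 1 conventional dendritic cells (cDC1) and neutrophils, all between 191.7 and 155.9 CPM. Non-classical monocytes (128.3 CPM), C1q+ macrophages (105.7 CPM), plasmacytoid dendritic cells (pDC, 95.69 CPM) and B cells (77.71 CPM, 60.46 to 98.34) closed it. From classical monocytes downward, the intervals of neighbours in this order overlapped.

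In DMSO tumours the same dendritic cells led and the same pair closed the order. Migratory dendritic cells had 225.5 CPM of Gpr132 (193.9 to 260.8), cDC2 had 161.6 CPM (138.1 to 187.9) and classical monocytes had 110.6 CPM (102.3 to 119.2). Foxp3+ T cells had 89.14 CPM, NK cells had 46.04 CPM, pDC had 45.55 CPM and B cells had 33.08 CPM (21.61 to 48.46). The intervals of migratory dendritic cells, cDC2 and classical monocytes were separate in this library, and from classical monocytes downward those of neighbours overlapped. NK cells were the gate that stood most differently, 6th of 13 in STK tumours and 11th in DMSO tumours.

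**Figure D1:**
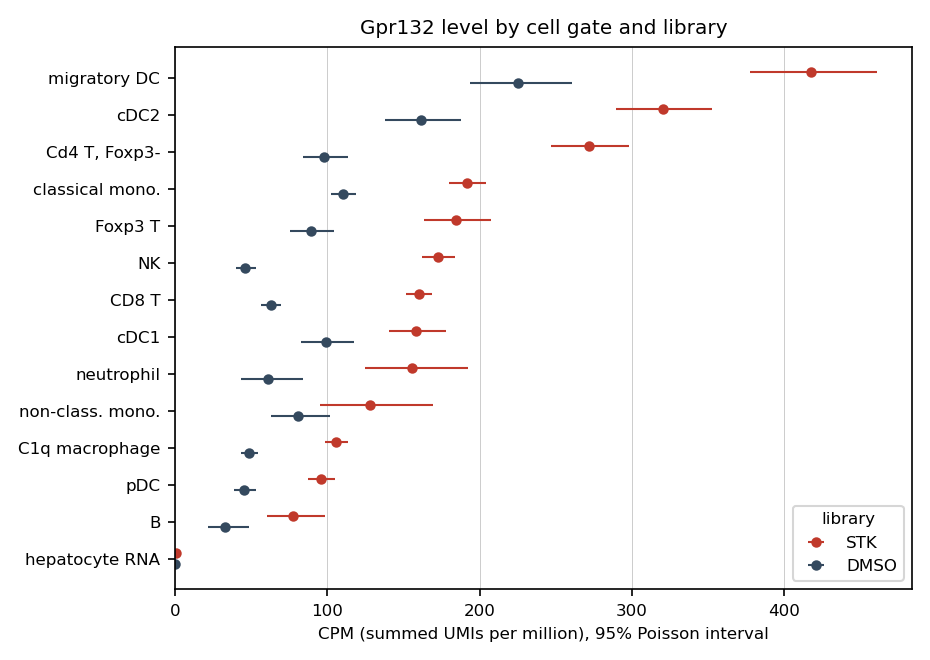
Gpr132 level (CPM, x axis) in each cell gate (y axis, ordered by the STK level) for the STK library (red, upper point) and the DMSO library (dark blue, lower point), with exact Poisson 95% intervals. The STK point lies to the right of the DMSO point in all 13 leukocyte gates, and cells with hepatocyte RNA sit near 0 in both.

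Little Gpr132 was found in cells with hepatocyte RNA. Cells with at least 1% of their UMIs from hepatocyte genes and no leukocyte gate had 8 Gpr132 UMIs in 513 STK cells (0.647 CPM) and 4 in 770 DMSO cells (0.218 CPM). Their median depths, 26349 STK and 25687.5 DMSO UMIs, lay above those of every leukocyte gate, so a fixed amount of free RNA weighs less in their CPM. The background from free RNA in the leukocyte gates was not measured. Kupffer-gated macrophages, the resident macrophages of liver, had 1 Gpr132 UMI in 36 STK cells (5.002 CPM, 0.127 to 27.9), which lies below the interval of the other C1q+ macrophages of that library (98.5 to 113 CPM). The 8 Kupffer-gated DMSO cells had no Gpr132 UMI, too few cells for a comparison.

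In Foxp3+ T cells, the regulatory T cells of the study's title, Gpr132 had 284 UMIs in 255 STK cells and 156 UMIs in 315 DMSO cells. That is 184.6 CPM (163.7 to 207.3) in STK tumours and 89.14 CPM (75.7 to 104.3) in DMSO tumours, 2.07 times higher with STK (1.70 to 2.53). Among all genes measured in this gate, 8.88% were at least 1.5 times higher in the STK library and 14.4% as much lower. The male cells of the gate gave 79 UMIs in 59 STK cells and 83 UMIs in 152 DMSO cells, a ratio of 2.90 (2.10 to 3.99). The female cells gave 104 UMIs in 83 STK cells but 9 UMIs in only 17 DMSO cells, 146.5 CPM against 155.7 CPM, a ratio of 0.941 with a wide interval (0.477 to 2.12). In female Foxp3+ T cells no difference was detectable at this depth, in either direction.

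The same direction held outside Foxp3+ T cells, since Gpr132 was higher with STK in every one of the 13 gates, and at least 1.5 times higher in all 13. Only 8 of 8533 genes (0.0938%) were at least 1.5 times higher in every gate in which they were measured, and 1.91% had a ratio above 1 throughout. The highest ratio was in NK cells, with 172.9 CPM (162.4 to 183.9) in STK tumours and 46.04 CPM (39.82 to 52.95) in DMSO tumours, 3.76 times (3.22 to 4.399), where 6.64% of all genes were at least 1.5 times higher and 12.2% as much lower. The lowest was in non-classical monocytes, with 128.3 CPM in STK tumours and 80.78 CPM in DMSO tumours, 1.59 times (1.08 to 2.32; 14.5% of all genes were as much higher and 17.7% as much lower).

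Foxp3-negative Cd4 T cells, neutrophils, CD8 T cells and B cells followed NK cells. Foxp3-negative Cd4 T cells had 271.7 CPM in STK tumours and 97.82 CPM in DMSO tumours, 2.78 times (2.33 to 3.33; 10.5% of all genes passed). CD8 T cells had 160.1 CPM in STK tumours and 63.1 CPM in DMSO tumours, 2.54 times (2.26 to 2.86; 12.9%). Neutrophils had 155.9 CPM in STK tumours and 61.39 CPM in DMSO tumours, also 2.54 times (1.72 to 3.80; 13.4%). In B cells the ratio was 2.35 (1.48 to 3.84; 21.0%), on 69 STK and 26 DMSO UMIs. The interval of NK cells lay above those of Foxp3+ T cells, CD8 T cells and every myeloid gate except neutrophils.

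Dendritic cells, monocytes and macrophages had smaller ratios, as did Foxp3+ T cells, whose 2.07 lay just below macrophages and pDC. The ratio was 2.10 in pDC (1.76 to 2.52; 12.7% of all genes higher and 7.8% lower) and 1.98 in cDC2 (1.65 to 2.39; 13.6%). It was 1.85 in migratory dendritic cells (1.55 to 2.22; 12.8%) and 1.60 in cDC1 (1.29 to 1.98; 8.74%), which had 158.3 CPM in STK tumours and 99.17 CPM in DMSO tumours. Classical monocytes stood at 1.73 (1.57 to 1.92; 10.0%). C1q+ macrophages had 105.7 CPM in STK tumours and 48.61 CPM in DMSO tumours, 2.18 times (1.90 to 2.499; 6.64% of all genes higher and 14.2% lower). The median over the 13 gates was 2.10 times, and Gpr132 was number 37 from the top of 8533 genes ranked by that median. For comparison, 1.9% of genes had a median of at least 1.5 times higher, and 1.9% of at least 1.5 times lower. Over all kept cells Gpr132 had 129.4 CPM in the STK library and 52.94 CPM in the DMSO library, 2.45 times (2.36 to 2.54; 9.79% of all genes were at least 1.5 times higher and 9.88% as much lower). Hepatocyte-RNA cells, nearly free of Gpr132, held 12357603 of 79681844 STK UMIs and 18326759 of 78065924 DMSO UMIs in these sums. With each of the 13 gates given equal weight the ratio was 2.10.

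Within each sex Gpr132 was higher with STK in every gate with at least 50 cells of that sex in both libraries, a size that the female Foxp3+ T cells did not reach. Male cells could be compared in 7 gates, and Gpr132 was at least 1.5 times higher in 6 of them. Male NK cells had 194.4 CPM in the STK library and 38.8 CPM in the DMSO library, a ratio of 5.01 (3.74 to 6.73). Male classical monocytes were the exception, with 133.8 CPM in the STK library and 102.8 CPM in the DMSO library, 1.30 times (1.03 to 1.64).

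Female cells could be compared in 5 gates, with 4 past the fold. Female C1q+ macrophages had 109.3 CPM in the STK library and 30.73 CPM in the DMSO library, 3.56 times (2.02 to 6.94), on 12 DMSO UMIs. Female pDC had 106.1 CPM in the STK library and 89.75 CPM in the DMSO library, 1.18 times with an interval that includes 1 (0.844 to 1.70). Male pDC, by contrast, stood at 2.14 times (1.49 to 3.07). In the DMSO library the female level was the higher of the sexes in pDC and the lower in macrophages.

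**Figure D2:**
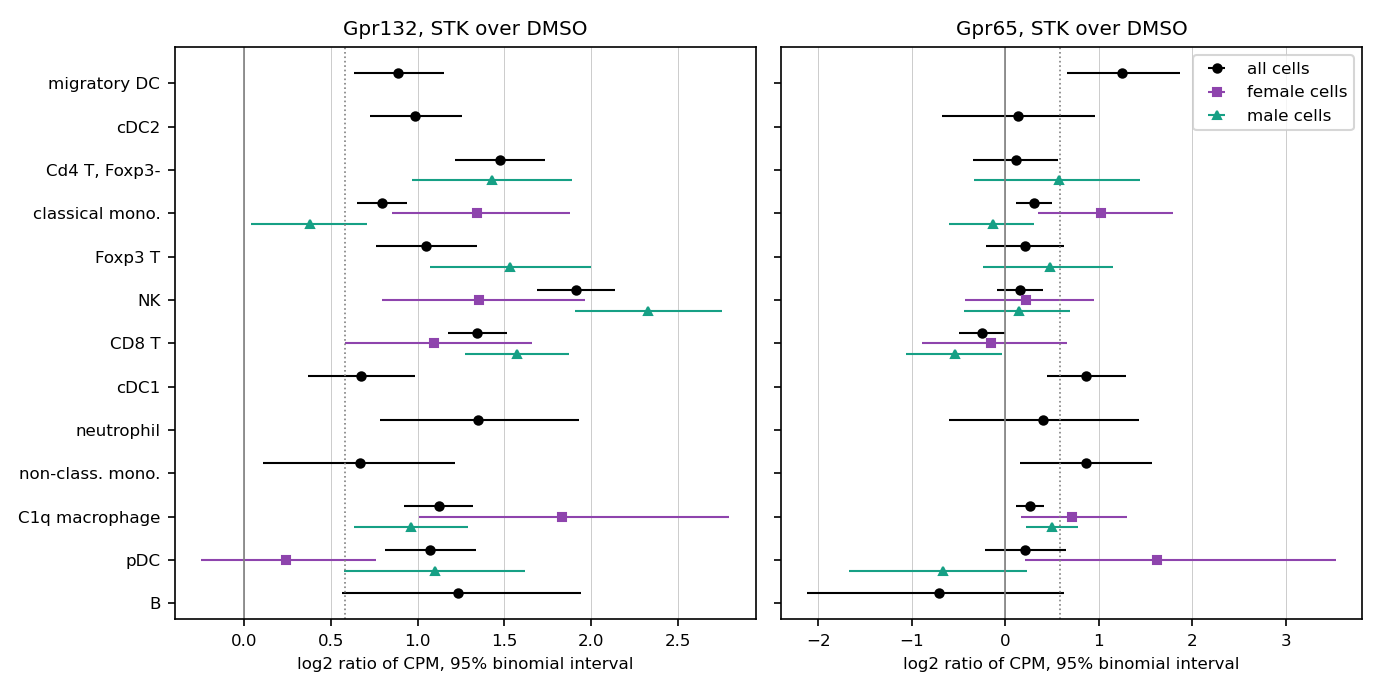
Log2 ratio of CPM, STK over DMSO (x axis), for Gpr132 (left) and Gpr65 (right) in each gate (y axis, in the order of the STK level of Gpr132), over all cells (black circles), female cells (purple squares) and male cells (green triangles), with 95% binomial intervals. The solid line marks equal levels and the dotted line 1.5 times; Gpr132 lies right of the dotted line in all 13 gates over all cells, whereas Gpr65 passes it in 3.

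More of the Foxp3+ T cells had Gpr132 detected with STK. After each cell was thinned to 1000 UMIs, 54 of 255 STK Foxp3+ T cells (21.2%, 16.3 to 26.7%) and 31 of 310 DMSO cells (10.0%, 6.90 to 13.9%) had a Gpr132 UMI, with no STK cell and 5 DMSO cells left out as too shallow. Without thinning the shares were 62.7% of STK cells and 32.4% of DMSO cells, at median depths of 3914 STK and 3505 DMSO UMIs. Hepatocyte-RNA cells, thinned alike, had a Gpr132 UMI in 0 of 485 STK cells, which allows a share of up to 0.619%, and in 0 of 745 DMSO cells, which allows up to 0.403%. These cells had median depths of 26349 STK and 25687.5 DMSO UMIs before thinning.

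The share of cells with Gpr132 was higher with STK in all 13 gates, with cells thinned to 1000 UMIs and to 2000 UMIs. In NK cells, at 1000 UMIs, the thinned shares with Gpr132 were 19.0% in STK tumours (16.7 to 21.5%, 1083 cells) and 5.56% in DMSO tumours (4.05 to 7.41%, 774 cells). In migratory dendritic cells they were 39.2% in STK tumours (30.4 to 48.5%, 120 cells) and 20.7% in DMSO tumours (13.6 to 29.4%, 111 cells). In cDC1 the shares were 13.01% in STK tumours (7.62 to 20.3%) and 10.9% in DMSO tumours (5.56 to 18.6%), intervals that overlap. The cDC1 shares stood further apart at 2000 UMIs, with 31.7% in STK tumours (23.48 to 40.8%) and 15.0% in DMSO tumours (8.65 to 23.53%), intervals that still overlap. At that depth Foxp3+ T cells had shares of 34.5% in STK tumours (28.4 to 41.0%) and 18.0% in DMSO tumours (13.6 to 23.1%).

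Gpr65, the Gs-coupled proton sensor of leukocytes, had its own order, with macrophages first. In STK tumours C1q+ macrophages had 117.7 CPM of Gpr65 (110.0 to 125.7), followed by migratory dendritic cells with 97.01 CPM, cDC1 with 91.53 CPM, classical monocytes with 91.02 CPM and non-classical monocytes with 86.42 CPM, whose intervals overlap those of their neighbours. Foxp3+ T cells had 65.64 CPM, NK cells 61.34 CPM, Foxp3-negative Cd4 T cells 52.23 CPM and CD8 T cells 35.78 CPM, and the intervals of these Cd4 and CD8 T cells were separate. Neutrophils (35.43 CPM) and pDC (24.55 CPM) followed. B cells were last with 10.14 CPM (4.64 to 19.2). Among dendritic cells cDC2 had 25.23 CPM (17.26 to 35.62), below cDC1, whereas Gpr132 was higher in cDC2 than in cDC1.

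In DMSO tumours C1q+ macrophages again stood first with 97.9 CPM of Gpr65 (90.05 to 106.2), apart from classical monocytes with 73.32 CPM (66.66 to 80.46). Foxp3+ T cells (56.57 CPM), NK cells (54.96 CPM) and cDC1 (50.33 CPM) followed with overlapping intervals, and B cells were last with 16.54 CPM. Foxp3-negative Cd4 T cells, non-classical monocytes, CD8 T cells and migratory dendritic cells lay between 48.35 and 40.89 CPM, and neutrophils, cDC2 and pDC between 26.76 and 21.13 CPM. Kupffer-gated cells of STK tumours, which had a single Gpr132 UMI, had 19 Gpr65 UMIs in 36 cells, 95.03 CPM (57.2 to 148). Hepatocyte-RNA cells had 2 Gpr65 UMIs in the STK library (0.162 CPM) and 5 in the DMSO library (0.273 CPM).

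**Figure D3:**
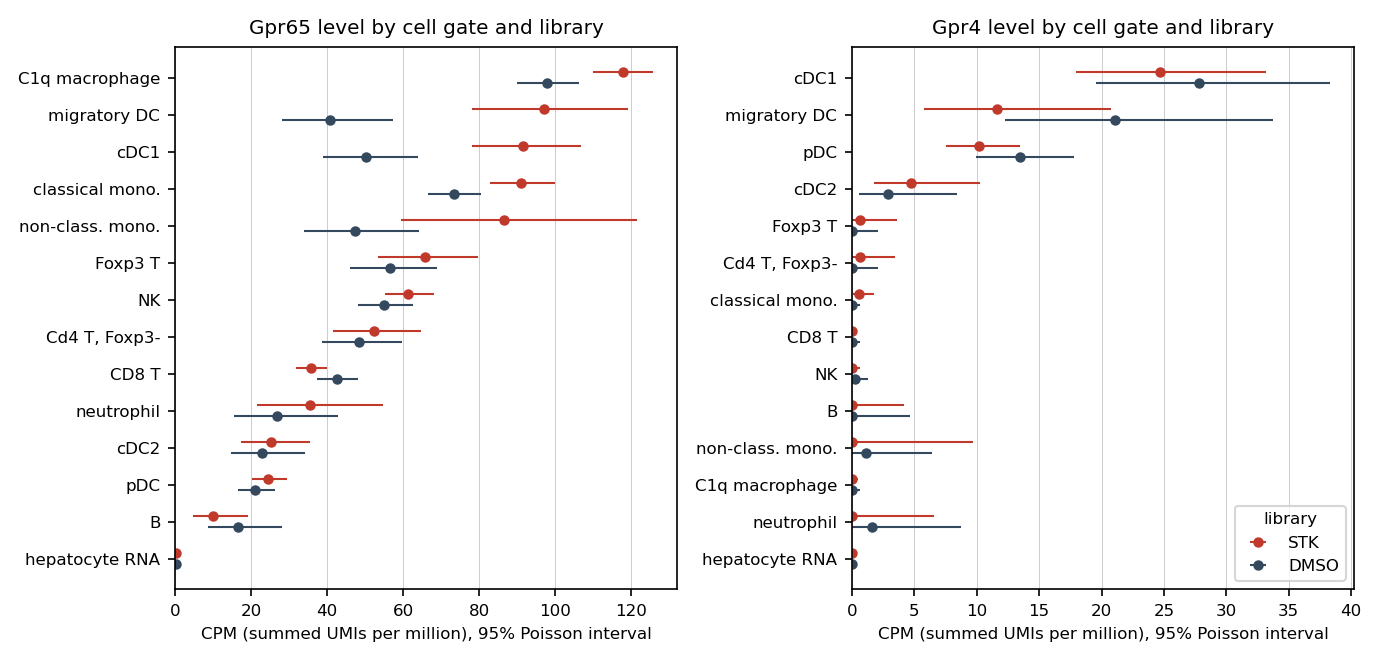
Level (CPM, x axis) of Gpr65 (left) and Gpr4 (right) in each cell gate (y axis, each panel ordered by its own STK level) for the STK library (red, upper point) and the DMSO library (dark blue, lower point), with exact Poisson 95% intervals. Gpr65 is highest in C1q+ macrophages in both libraries, and Gpr4 has its counts in cDC1, migratory dendritic cells, pDC and cDC2.

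Gpr65 stood close to equal between the libraries in most gates. It was at least 1.5 times higher with STK in 3 of the 13 gates and at least 1.5 times lower in 1, where 6.64% to 21.0% of all genes were as much higher and 6.24% to 30.1% as much lower in single gates. Migratory dendritic cells had 97.01 CPM in STK tumours and 40.89 CPM in DMSO tumours, 2.37 times (1.58 to 3.65). In cDC1 the levels were 91.53 CPM in STK tumours and 50.33 CPM in DMSO tumours, 1.82 times (1.36 to 2.45). Non-classical monocytes, the last of these gates, had 86.42 CPM in STK tumours and 47.32 CPM in DMSO tumours, 1.83 times (1.12 to 2.96). The gate with the lower value was B cells, on 9 STK and 13 DMSO UMIs (0.613 times, 0.231 to 1.55; 10.6% of all genes were as much lower).

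In the lymphoid gates with more UMIs, Gpr65 differed little. Foxp3+ T cells had 101 UMIs in STK tumours and 99 in DMSO tumours, 1.16 times (0.871 to 1.55). NK cells stood at 1.12 times (0.944 to 1.32) and CD8 T cells at 0.842 times (0.708 to 1.00), both intervals far below those of Gpr132 in the same cells. C1q+ macrophages stood at 1.20 times (1.08 to 1.34) and classical monocytes at 1.24 times (1.09 to 1.42). The median over the 13 gates was 1.16 times, number 978 of 8533 genes. Over all kept cells Gpr65 had 47.07 CPM in the STK library and 33.78 CPM in the DMSO library, 1.39 times (1.33 to 1.47).

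The sexes gave different counts for Gpr65. None of the 7 gates that could be compared in male cells was at least 1.5 times higher, against 3 of 5 in female cells. These sets of gates differ, and neither holds cDC1, migratory dendritic cells or non-classical monocytes. The female count rests on 4 DMSO UMIs in pDC, 19 in classical monocytes and 29 in C1q+ macrophages. Female classical monocytes had 87.57 CPM in the STK library and 42.92 CPM in the DMSO library, 2.04 times (1.27 to 3.46), whereas male ones had 67.55 CPM in the STK library and 73.97 CPM in the DMSO library, 0.913 times (0.662 to 1.24). The part of sex in the ratios of cDC1, migratory dendritic cells and non-classical monocytes was not tested, since none of these gates held 50 cells of either sex in both libraries. Below that size, male cells stood at 1.69 times (1.115 to 2.57) in cDC1 and 3.61 times (2.10 to 6.30) in migratory dendritic cells. Male non-classical monocytes stood at 4.95 times, with 6 STK cells. Female cells of these gates stood at 4.08, 2.35 and 1.055 times, on 4, 2 and 7 DMSO UMIs.

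Gpr4 was a rare transcript of dendritic cells in these sorts. It had 167 UMIs in 141 STK cells and 134 UMIs in 108 DMSO cells, 2.10 CPM (1.79 to 2.44) in the STK library and 1.72 CPM (1.44 to 2.03) in the DMSO library, a ratio of 1.22 whose interval includes 1 (0.967 to 1.54). Its highest level was in cDC1, with 44 UMIs in 34 of 123 STK cells and 37 UMIs in 28 of 102 DMSO cells. That is 24.7 CPM (18.0 to 33.2) in STK tumours and 27.8 CPM (19.6 to 38.3) in DMSO tumours, 0.889 times (0.561 to 1.42). The pDC gate held the largest number of counts, 49 UMIs in 43 cells in the STK library and 49 UMIs in 43 cells in the DMSO library, or 10.2 CPM (7.54 to 13.5) in STK tumours and 13.5 CPM (9.95 to 17.8) in DMSO tumours, 0.758 times (0.4996 to 1.15).

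Migratory dendritic cells had 11 Gpr4 UMIs in STK tumours (11.6 CPM) and 17 in DMSO tumours (21.1 CPM), 0.551 times (0.233 to 1.246; 19.2% of all genes were at least 1.5 times lower in this gate). The cDC2 gate had 6 UMIs in the STK library and 3 in the DMSO library. In CD8 T cells there was no Gpr4 UMI in either library, which allows up to 0.361 CPM in STK tumours and 0.519 CPM in DMSO tumours. The same held in C1q+ macrophages (up to 0.397 CPM in STK and 0.512 CPM in DMSO tumours) and in B cells. Foxp3+ T cells had 1 UMI in the STK library and 0 in the DMSO library. The intervals of cDC1 and pDC were separate in both libraries, and that of migratory dendritic cells overlapped each of them.

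Within CD8 T cells Gpr132 was lower in cells with Havcr2, a receptor of exhausted cells, than in cells with the granzyme gene Gzmk and no Havcr2. The Gzmk cells had 139.4 CPM (126.9 to 152.8) in STK tumours and 64.55 CPM (53.29 to 77.48) in DMSO tumours. The Havcr2 cells had 101.1 CPM (83.57 to 121.1) in STK tumours and 37.68 CPM (26.67 to 51.72) in DMSO tumours. In each library the intervals of these subsets were separate. Gpr132 was higher with STK in both, by 2.16 times (1.76 to 2.67) in the Gzmk cells and 2.68 times (1.85 to 3.98) in the Havcr2 cells.

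Gpr65 had 42.79 CPM (35.99 to 50.49) in STK tumours and 42.66 CPM (33.61 to 53.39) in DMSO tumours in the Gzmk cells, 1.00 times (0.753 to 1.34). In Havcr2 cells it had 41.46 CPM (30.57 to 54.97) in STK tumours and 59.5 CPM (45.4 to 76.58) in DMSO tumours, 0.697 times (0.467 to 1.04). The intervals of the subsets overlapped in each library. Cycling CD8 T cells, which may belong to any of the subsets, had 104.4 CPM of Gpr132 in STK tumours and 42.75 CPM in DMSO tumours, and 27.21 CPM of Gpr65 in STK tumours and 38.28 CPM in DMSO tumours. The Gpr65 ratio there was 0.711 (0.517 to 0.980).

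**Figure D4:**
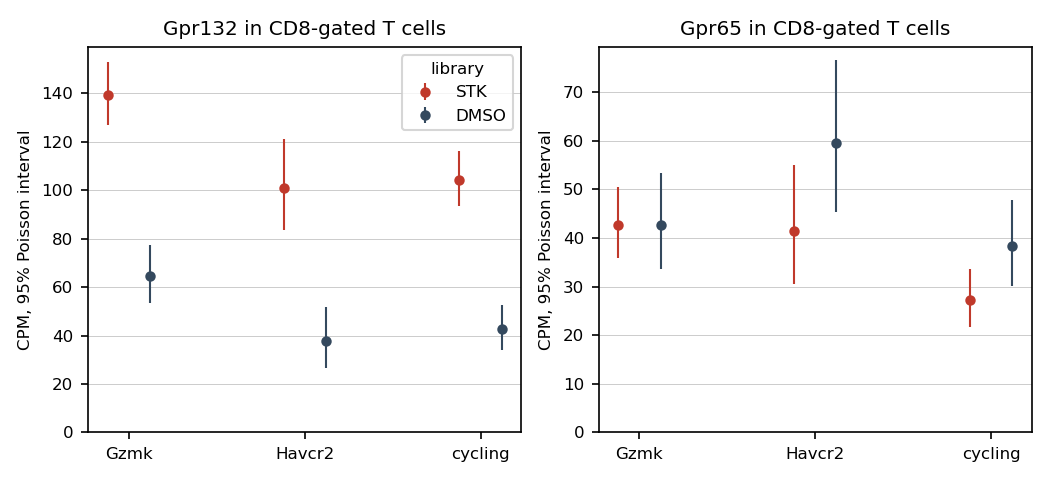
Level (CPM, y axis) of Gpr132 (left) and Gpr65 (right) in subsets of CD8-gated T cells (x axis), for the STK library (red, left point) and the DMSO library (dark blue, right point), with exact Poisson 95% intervals. Gpr132 is higher with STK in all 3 subsets and lower in Havcr2 cells than in Gzmk cells in both libraries; cycling cells may also be counted in another subset.

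Gpr132 was also higher with STK in the myeloid subsets. Interferon-high classical monocytes had 187.3 CPM of Gpr132 in STK tumours and 97.67 CPM in DMSO tumours, 1.92 times (1.51 to 2.44), and 102.9 CPM of Gpr65 in STK tumours and 77.96 CPM in DMSO tumours, 1.32 times (0.988 to 1.77). Macrophages with Spp1 or Arg1, genes of tumour-associated macrophages, had less Gpr132 than C1q+ macrophages as a whole, 59.16 CPM (43.32 to 78.92) in STK tumours and 14.92 CPM (4.84 to 34.8) on 5 UMIs in DMSO tumours, 3.97 times with a wide interval (1.58 to 12.8). The gamma-delta or IL-17 T cell gate, with 74 STK and 35 DMSO cells, had 231.7 CPM of Gpr132 in STK tumours and 79.56 CPM in DMSO tumours.

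Pooled over cells of all types, Gpr132 and Gpr65 were detected together about as often as their separate shares give, whereas single gates lay on either side. After thinning to 2000 UMIs, 279 of 9196 STK cells and 112 of 9001 DMSO cells had both, where the product of the shares gives 257.0 STK and 102.9 DMSO cells. Cells with either receptor made up 34.9% of STK cells and 20.7% of DMSO cells. In NK cells 31 STK and 5 DMSO cells had both, against products of 42.67 STK and 7.64 DMSO cells. CD8 T cells, Foxp3-negative Cd4 T cells and Foxp3+ T cells also lay below their products in both libraries. Foxp3+ T cells had 8 STK and 4 DMSO cells with both, against products of 10.69 STK and 5.75 DMSO cells. The pDC lay above their products in both libraries, on 4 STK and 3 DMSO cells. In C1q+ macrophages 40 STK and 20 DMSO cells had both, against products of 33.79 STK and 13.04 DMSO cells.

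The genes around Gpr132 had lower ratios than Gpr132 over all kept cells. Of its 10 nearest genes with at least 100 UMIs, none was at least 1.5 times higher with STK. Among all genes 9.79% were that much higher and 9.88% as much lower, and 10 genes are too few to stand apart from that share. Cdca4, a cell cycle regulator 21.4 kb away, had 32.07 CPM in the STK library and 36.2 CPM in the DMSO library, 0.886 times (0.839 to 0.935). Jag2, a Notch ligand on the other side, had 188 STK and 123 DMSO UMIs, 1.497 times (1.19 to 1.90). Nudt14 stood at 1.30 times and Pld4, a nuclease of dendritic cells, at 1.09 times. Ahnak2 and Clba1 were lower with STK, Ahnak2 at 0.598 times on 83 STK and 136 DMSO UMIs and Clba1 at 0.515 times on 104 STK and 198 DMSO UMIs.

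Near Gpr65, Galc, the lysosomal galactosylceramidase gene 9.18 kb away, had 10.77 CPM in the STK library and 7.97 CPM in the DMSO library, 1.35 times (1.22 to 1.501), close to the Gpr65 value of 1.39. Kcnk10, a potassium channel, had 89 STK and 43 DMSO UMIs, 2.03 times (1.39 to 2.99). Near Gpr4, Eml2 and Opa3 on either side stood at 0.976 and 0.981 times, whereas Fosb, an immediate-early transcription factor 78.5 kb away, had 128.8 CPM in the STK library and 53.93 CPM in the DMSO library, 2.39 times (2.30 to 2.48).

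**Figure D5:**
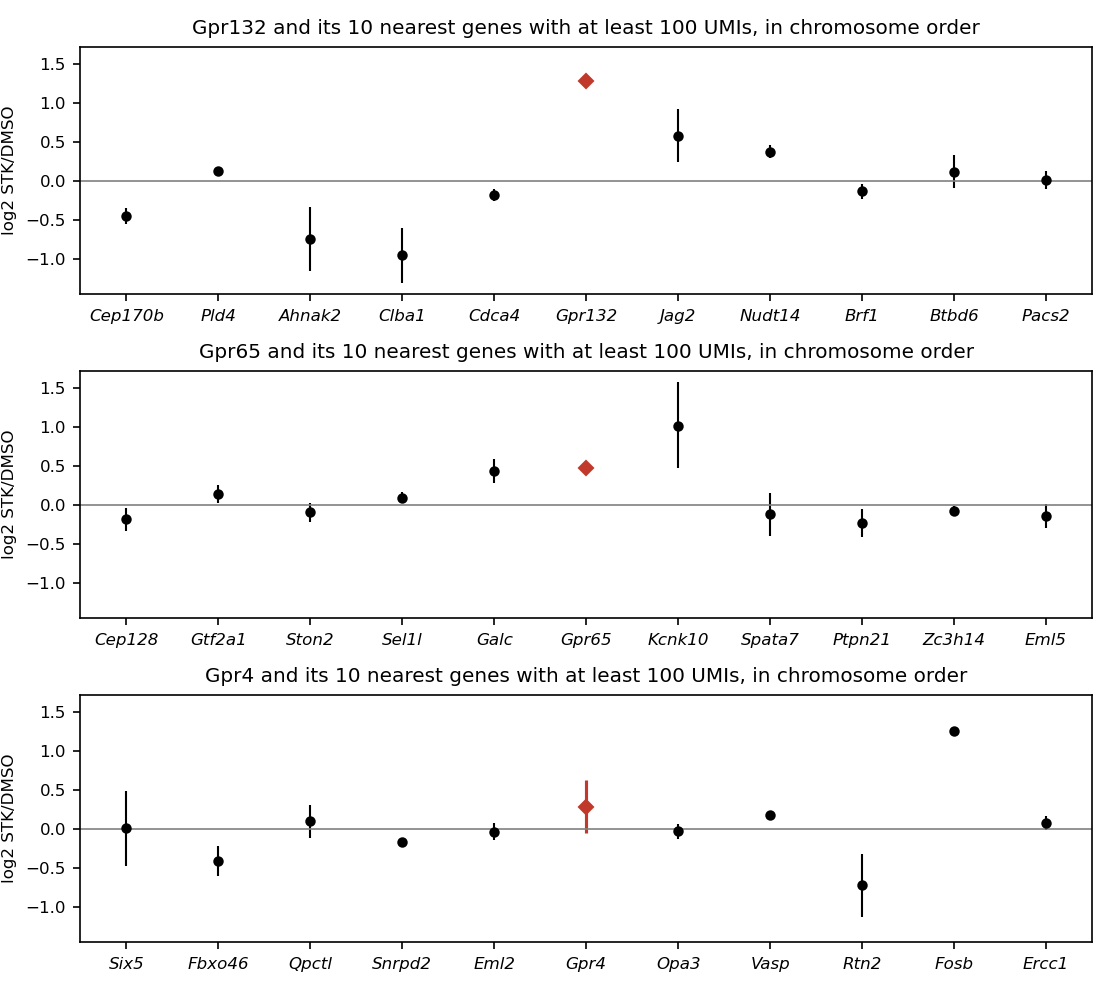
Log2 ratio of CPM over all kept cells, STK over DMSO (y axis), for each receptor (red diamond) and its 5 nearest genes on each side with at least 100 UMIs (black circles), evenly spaced in chromosome order (x axis, not to scale of distance), with 95% binomial intervals, which are smaller than the symbol for abundant genes. Gpr132 lies above all 10 neighbours, Gpr65 below Kcnk10 and beside Galc, and Gpr4 well below Fosb.

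Across gates, the genes whose levels ran most like Gpr132 were Jak2 (Pearson r 0.846 over STK gates and 0.826 over DMSO gates), Nr4a3 (0.923 STK, 0.815 DMSO), Actg1 (0.819 STK, 0.805 DMSO), Bcl2a1d (0.799 STK, 0.878 DMSO) and Etv3 (0.797 STK, 0.823 DMSO). The measure is log2(CPM + 10) over the 12 gates with at least 100 cells in a library, among 10909 genes, and each gate's genes share a library and its depth. JAK2 is a cytokine receptor kinase, NR4A3 an immediate-early nuclear receptor and ETV3 an ETS-family repressor. For Gpr65 they were Vps29, Ap2s1, Sirt2, Sgk1 and Galc. Galc (r 0.849 over STK gates and 0.759 over DMSO gates) is also the nearest gene to Gpr65 with at least 100 UMIs. For Gpr4 they were Kctd14, Pdia5, Flt3, Map4k5 and Erlin1. Flt3, the dendritic cell growth factor receptor (0.907 over STK gates and 0.857 over DMSO gates), is also among the genes that gated cDC2. Gpr132 and Gpr65 themselves had an r of 0.358 over STK gates and 0.128 over DMSO gates.

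The genes with the largest median ratios over gates gave the surroundings in which Gpr132 stood. Ramp3, a receptor-modifying protein, had a median of 5.34 times higher with STK, Areg, an EGF receptor ligand, 4.84 times, Cxcl1, a neutrophil chemokine, 4.14 times, and Vegfa, the angiogenic factor, 4.01 times. Nr4a3 (3.45 times), Hic1 (3.39 times), Il1r2 (3.39 times), Crem (3.17 times), G6pc (2.97 times) and Egr1 (2.95 times) followed, and Gpr132 was number 32 among the 7965 genes of this ranking, which leaves out gene models and sex-linked, ribosomal and receptor-segment genes. Among the 8 genes at least 1.5 times higher in every measured gate were, besides Gpr132, Areg, Nr4a3, Il1r2, Phlda1, Vps37b, the gene model Gm10260 and Xist, the female-specific transcript. Xist stood at a median of 4.82 times, which shows how far the sex of the cells moved with the libraries.

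Of 15 measured genes of the cAMP pathway, downstream of Gs, 3 (20.0%) had a median at least 1.5 times higher and none lower, against 1.9% higher and 1.9% lower of all 8533 genes. They were Crem, a cAMP-responsive transcription factor, with 90.12 CPM in STK tumours and 31.0 CPM in DMSO tumours summed over the 13 gates, Pde4b, a phosphodiesterase that breaks down cAMP, with 194.7 CPM in STK tumours and 124.4 CPM in DMSO tumours (median 1.71 times), and its relative Pde4d (median 1.69 times), which is named for passing the fold. The median of the list was 0.11 on the log2 scale, against -0.03 over all genes. With at least 50 UMIs over both libraries, 2 of 12 measured genes were as much higher. This list, like the others, was chosen with earlier results of these data known, so its count is not independent support. Creb1 (0.848 times) and Crtc2 (0.918 times) were the furthest below equal.

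Of all genes, 1.9% passed the fold upward and 1.9% downward. None of the 8 measured G alpha subunits passed it, with Gna13 at 1.33 times and Gna15 at 0.843 times. The 10 measured genes of pH and lactate handling also stayed within it, with the lactate exporter Slc16a3 at 1.48 times and the anion exchanger Slc4a2 at 0.717 times. So did the 8 measured enzymes that make or clear lipid ligands ascribed to GPR132, with Lpcat1 at 1.26 times and Lpcat4 at 0.906 times. Among 10 other lipid and chemoattractant receptors, P2ry10, a lysophosphatidylserine receptor of lymphocytes, passed the fold with a median of 1.79 times, and Lpar6 was furthest below equal at 0.722 times.

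In Foxp3+ T cells alone, 3 of 16 measured cAMP genes were at least 1.5 times higher and none lower, where 6.98% of 9296 genes with at least 20 UMIs were higher and 11.8% lower. Crem had 222.9 CPM in STK tumours and 116.6 CPM in DMSO tumours, 1.91 times. The phosphodiesterases Pde7a and Pde3b stood at 1.56 and 1.93 times, the last on 17 STK and 10 DMSO UMIs. Only Crem also passed the fold in the median over gates. Of 11 measured pH and lactate genes, 3 were higher, among them Ldhb and the bicarbonate transporter Slc4a7, and 1, Slc4a2, was lower. Of 13 other receptors, 2 were higher and 2 lower. The oxysterol receptor Gpr183 had 48.09 CPM in STK tumours and 32.0 CPM in DMSO tumours, 1.503 times, and Gpr18 stood at 2.45 times on 43 STK and 20 DMSO UMIs. The prostaglandin E2 receptor gene Ptger4 had 24.7 CPM in STK tumours and 53.14 CPM in DMSO tumours, 0.465 times, and Lpar6 had 8 STK and 14 DMSO UMIs. Of these, Pde3b, Slc4a2, Gpr18 and Lpar6 were picked after their values were seen, for passing the fold.

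RNA of other cells and of handling moved with the libraries as well. Female transcripts were 2.60 to 7.99 times higher and male transcripts 0.261 to 0.573 times as high in the STK library over the 13 gates. The part of sex in the receptor ratios was not tested. Summed RNA of 17 hepatocyte genes stood between 0.524 times in cDC1 and 2.18 times in CD8 T cells, with no gene of the list at 0 in any gate. In Foxp3+ T cells the summed levels of 7 macrophage markers were 134.5 CPM in STK tumours and 133.7 CPM in DMSO tumours, mostly from Apoe (109.8 CPM STK, 111.4 CPM DMSO). Those of 7 CD8 T cell markers, with the gated Cd8a and Cd8b1 at 0, were 2227 CPM in STK tumours and 2277 CPM in DMSO tumours. Most of that sum was Ccl5 (1501 CPM STK, 1716 CPM DMSO, 0.874 times), whereas Cd7 stood at 2.76 times and Ctsw at 1.41 times. In other gates these lists moved with the libraries. The CD8 T cell markers ran from 0.737 times in non-classical monocytes to 3.80 times in neutrophils, which had 382.7 CPM in STK tumours and 100.7 CPM in DMSO tumours, and stood at 1.75 times in classical monocytes. The macrophage markers ran from 0.495 times in migratory dendritic cells to 1.92 times in CD8 T cells, with 325.8 CPM in STK tumours and 169.8 CPM in DMSO tumours, and stood at 1.82 times in B cells. The part of this RNA in the receptor ratios was not tested. Of 20 genes induced by dissociation and heat, 8 (40.0%) had medians at least 1.5 times lower with STK and 2 (10.0%) higher. Of all 8533 genes, 1.9% were as much lower and 1.9% as much higher. Hspa1b and Hspa1a, heat shock chaperones, were 40.8 and 27.8 times lower, while Egr1 and Fosb were 2.95 and 2.86 times higher. Summed over the list the ratio lay between 0.530 in classical monocytes and 0.940 in NK cells. The part of handling in the receptor ratios was not tested.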

How the data were processed

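The authors deposited unnormalized UMI counts for each gene in each barcode, written by Cell Ranger 6.0.2 per the file headers, with reads on GRCm38 (mm10) per the submitters' processing notes. The sources used here do not give the annotation release or whether strand was used. Columns of other samples numbered 0. Some genes of the lists and 1 CD8 T cell subset are not reported here. The members and lists were chosen with earlier results of these data known. Cells were assigned to 16 marker gates, and cells in several gates (1196 STK, 1105 DMSO) or none (2765 STK, 3386 DMSO) were left out of gate values. UMIs were summed per gate and library and divided by all UMIs of those cells. A ratio needed 10 UMIs of the gene over both libraries, and a list or ranking value needed 20 UMIs in at least 8 gates. A cell was female with Xist and no Y-linked transcript, and male with the reverse. No test was run. Doublets were kept, apart from those in several gates. In an alternative they were removed with Scrublet (scanpy 1.11.5) at a score of 0.25, set after the automatic threshold had marked 0 STK and 217 DMSO cells, which removed 425 STK and 396 DMSO cells. The 1% limit for hepatocyte-RNA cells was also set after seeing the data, since the 5% gate held 35 STK and 42 DMSO cells. Named genes are the members, their neighbours, the 5 most like each member in level, the 10 with the largest median ratio, the genes past the fold in every gate (this added after seeing the data), and from each list up to 2 members furthest from equal in each direction. Gene positions came from GENCODE vM21 and promoter windows from RefSeq. The ratio code was tested on simulated counts. Python 3.11.15, numpy 2.4.6, scipy 1.17.1 and pandas 2.3.3 were used.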

Additional observations from a re-analysis of the deposited data

Results flagged for a closer look

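Gpr132 was also higher with STK outside the 13 single gates, in kept cells of no gate or of several gates and in barcodes left out by the cell filter. In cells in no gate, Gpr132 had 54.9 CPM in the STK library (2765 cells) and 14.7 CPM in the DMSO library (3386 cells), a ratio of 3.73 (3.36 to 4.14), and Gpr65 had 15.2 CPM in the STK library and 7.55 CPM in the DMSO library, a ratio of 2.005 (1.71 to 2.36). Cells in more than 1 gate had 184.8 CPM of Gpr132 in the STK library and 112.9 CPM in the DMSO library, 1.638 times (1.52 to 1.77). Barcodes left out by the cell filter, nearly all for their mitochondrial share, had 32.1 CPM in the STK library on 70 UMIs and 8.75 CPM in the DMSO library on 11 UMIs, 3.673 times (1.93 to 7.69). Each is named because the signal lies outside the 13 gates and its STK interval in CPM lies above the DMSO interval. In cells in more than 1 gate, Gpr65 stood at 1.147 times (1.01 to 1.30). Gpr4 there had 44 STK and 17 DMSO UMIs, 1.84 times (1.03 to 3.44). The CPM intervals of the libraries overlapped for both.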

How the results depend on the processing

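On the log2 scale, Gpr132 over all kept cells (1.29) was 1.35 with median-of-ratios scaling and 1.24 as a mean of per-cell CPM. Among only the cells in a single stricter gate it was 1.02, on 6406 STK and 2604 DMSO UMIs instead of 10314 and 4133. It was 1.89 in female cells, 1.48 in male cells, 1.12 in cells under 1% hepatocyte RNA and 1.07 with equal weight per gate. Gpr65 over all kept cells (0.48) was 0.23 per cell, and 0.20 among only the cells in a single stricter gate. It was 1.36 in female cells, 0.70 in male cells, 0.30 under 1% hepatocyte RNA and 0.41 with equal weight. Gpr4 (0.29) was -0.12 per cell and -0.36 with equal weight per gate, so its direction depends on how cells are weighted. It was 1.06 in female cells, on 10 DMSO UMIs, and 0.86 in male cells. In Foxp3+ T cells, Gpr132 (1.05) was -0.088 in female cells, on 9 DMSO UMIs, and 1.53 in male cells. Gpr65 in Foxp3+ T cells (0.21) was 0.81 in female cells, on 43 STK and 2 DMSO UMIs, with a wide interval (-1.13 to 3.9). The 13 gates of Gpr132 became 4 of 5 in female cells, 6 of 7 in male cells and 8 at 2 times or more. For Gpr65, 0 of 7 gates passed the fold in male cells, but the 3 gates that passed over all cells were not among those 7. At 2 times or more, 1 gate of Gpr65 passed. The cause of these changes was not tested. Equal weighting was chosen after seeing the data. Stricter gates gave 12 gates for Gpr132. Median-of-ratios scaling also gave 12, since non-classical monocytes (0.668, with a median gene moved by 0.0846) fell just below the fold. It moved the median gene of B cells by 0.107, and that gate stayed past the fold. No paired analysis was possible because each group is 1 library, so no replicate could be left out either. Mice, STK, sex and handling cannot be told apart, beyond the values within each sex. Depth limits Gpr4 to 3 gates and female DMSO cells to 5.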
